A study of Mus musculus with 18 samples.

Results

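The hepatic drug and solute transporters are 32 listed genes of the ATP-binding cassette (ABC) and solute carrier (SLC) families whose proteins move drugs, conjugates, lipids and small solutes across the membranes of liver cells. They were listed by gene symbol with earlier results of these data known, and the genes for bile acid uptake and export were left out. Setting a count of called members beside the share of all genes is therefore a description, not an independent test. All 32 were found among the 55536 gene identifiers of each library. All 32 also passed the filter on low counts, which kept 14835 genes.

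The livers came from female C57BL/6 mice of 3 genotypes that differ in Ahr, the gene of the aryl hydrocarbon receptor (AHR). WT mice are AhRfl/fl, with a floxed Ahr gene, dHep mice are AhRΔHep, with Ahr deleted in hepatocytes, and dHSC mice are AhRΔHSC, with Ahr deleted in hepatic stellate cells. Each genotype was gavaged with peanut oil vehicle or with TCDD, a dioxin that activates AHR, at 100 µg/kg every 4 days, and livers were taken after 92 days. Each of the 6 groups holds 3 mice, 1 library per mouse, and mice are named here by group and by the number in their label. The Cre drivers, the deleted part of Ahr and the age of the mice are not given in the sources used here.

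Transporters set how long a compound stays in the hepatocyte. Carriers of the OATP and SLC22 families take organic anions and cations up from blood across the sinusoidal membrane. ABC pumps then send the products of metabolism into bile across the canalicular membrane, or back into blood across the sinusoidal membrane. Nuclear receptors, AHR and the stress factor NRF2 are known to control many of these genes in liver.

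The libraries held 12706490 to 27240877 counts. In 5 of the 18 libraries 2.20% to 4.25% of counts lay outside protein-coding genes, against 1.13% to 1.76% in the other 13. The 5 are dHep vehicle 9 and 15, dHep TCDD 16, dHSC vehicle 17 and dHSC TCDD 18, and in the last of them 28.4% of counts were mitochondrial. No WT library is among them, but WT TCDD 8 came next, at 1.76%. On the first principal component, the main axis of difference between libraries (38.3% of the variance), WT TCDD 8 stood at 36.8. The 5 stood at 62.1 to 126.4 there, and every other library at -11.8 or lower. Fits without the 5 libraries still hold WT TCDD 8. Levels are given as CPM, counts scaled to library size. In WT vehicle 1 the sum of 6 skeletal muscle genes was 936 CPM, while no other library exceeded 2.72 CPM. The 7 liver parenchymal markers measured (the hepatocyte list) summed to between 46790 and 169000 CPM in the libraries. Cyp1a1, the textbook AHR target, rose with TCDD by 8.70 on the log2 scale in WT and by 8.59 in dHSC, and its change of 2.26 in dHep missed the threshold (adjusted p = 0.473). Ahr itself had group means of 38.0 to 61.6 CPM and was called in no comparison. Its whole-gene count checks no label, because the deleted part is not known.

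At rest the transporters covered a wide range. Levels were divided by the length of all annotated exons in kilobases, a rough scale for comparing genes. Reads lost to overlapping or similar genes may lower a level on it. On this scale the highest levels in WT vehicle livers belonged to Slc22a30 (74.4 ± 11.1 CPM per kb, SD, n = 3), Slc22a18 (73.1 ± 37.6), Abcc2 (72.1 ± 25.8) and Abcc3 (51.5 ± 5.52). Slc22a30 is a rodent member of the SLC22 organic ion carriers and Slc22a18 is a carrier encoded in an imprinted gene cluster. Abcc2 (MRP2) is the canalicular pump for glucuronide and glutathione conjugates, and Abcc3 (MRP3) is its sinusoidal relative. The lowest levels were those of Abcb1b (0.322 ± 0.318 CPM per kb), a drug efflux pump of the P-glycoprotein type, and Abcc1 (0.269 ± 0.229). No gene in this order of 32 had its lowest mouse above the highest mouse of the next gene, so no neighbours in the order were separated beyond their spread.

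With TCDD in WT livers, 5 transporter genes rose and 2 fell, at an adjusted p under 0.05 in edgeR's quasi-likelihood test, with p-values adjusted by Benjamini-Hochberg. Abcc4, Abcg1, Slc22a3, Slc13a3 and Slc46a3 rose by 2.40 to 6.28 times. Slco1a4 and Slc22a30 fell to 0.272 and 0.321 times their vehicle levels. Across all genes 5.38% were called in that comparison, 3.43% higher and 1.95% lower. In 13 of the 32 transporters the 3 WT TCDD mice lay wholly above or below the 3 vehicle mice, where 24.8% of all genes did. The median log2 difference was -0.16 over the transporters and -0.02 over all genes. DESeq2 called 9 of the 32, where it called 8.32% of genes.

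In dHep livers none of the 32 was called with TCDD, and 0.0674% of all genes were. At an unadjusted p under 0.05 there were 3 transporters, where 6.70% of all genes passed, and DESeq2 called 0, where it called 0.584% of genes. The TCDD and vehicle mice did not overlap for 3 of the 32, against 9.59% of all genes. In dHSC livers 3 transporters rose and 1 fell, with 2.55% of genes called, 1.71% higher and 0.843% lower. There the groups did not overlap for 12 of the 32, against 17.3% of all genes. DESeq2 called 8 in dHSC, where it called 4.66% of genes. The median log2 difference of the transporters was -0.04 in dHep and 0.09 in dHSC, and that of all genes was -0.01 in dHep and -0.0042 in dHSC.

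**Figure D1:**
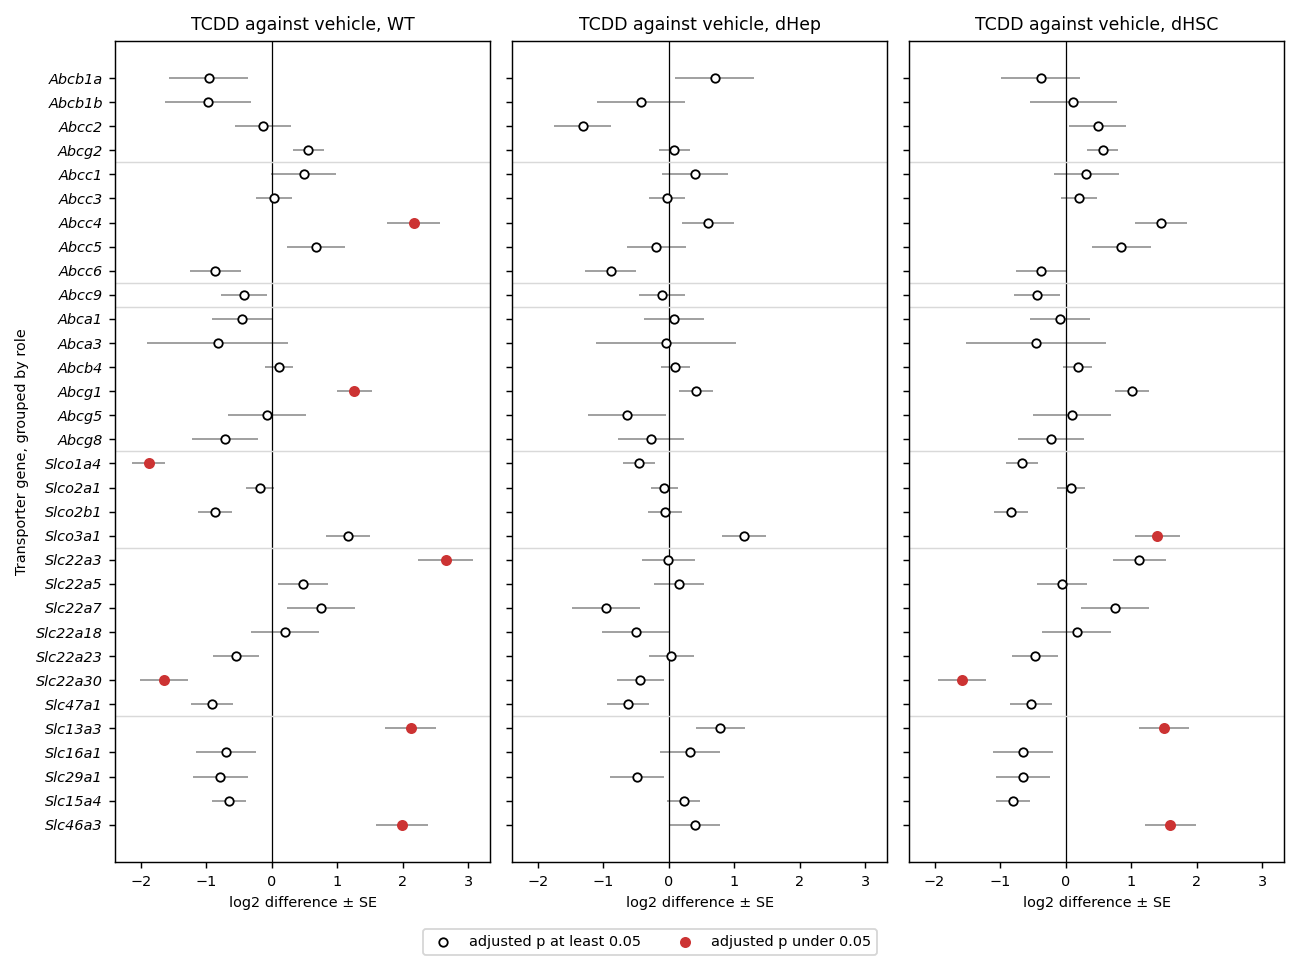
Log2 difference between TCDD and vehicle livers (x axis, with its standard error as a bar) for the 32 transporter genes in WT, dHep and dHSC mice, grouped by role with the apical efflux pumps at the top. Filled red points have an adjusted p under 0.05: there are 7 in WT, 0 in dHep and 4 in dHSC.

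The ABCC pumps that export conjugates were led by Abcc4 (MRP4, ENSMUSG00000032849, GRCm38 chromosome 14, 118482692 to 118706219, minus strand). It exports steroid and bile acid conjugates and cyclic nucleotides from the cell across the sinusoidal membrane. Its level was 19.3, 7.85 and 11.4 CPM in WT vehicle mice 1, 7 and 13, and 75.9, 39.8 and 56.8 CPM in WT TCDD mice 2, 8 and 14. Every treated WT mouse lay above every vehicle mouse. The rise was 2.16 on the log2 scale (SE 0.41, adjusted p = 0.00488), a 4.48-fold change.

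In dHep livers Abcc4 stood at 9.21, 13.5 and 9.06 CPM with vehicle and 17.4, 21.2 and 9.59 CPM with TCDD, and the groups overlapped. The log2 difference there was 0.60 (SE 0.40, adjusted p = 0.816). In dHSC livers it was 15.2, 15.6 and 9.14 CPM with vehicle and 39.4, 47.9 and 22.3 CPM with TCDD. These groups did not overlap, and the log2 difference of 1.46 (SE 0.40) missed the threshold at an adjusted p of 0.0739. The mouse dHSC TCDD 18, at 22.3 CPM, is among the 5 libraries that stand apart, and without those libraries the dHSC difference was 1.51 (adjusted p = 0.115).

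None of the other members of this role was called in any comparison. Abcc1 (MRP1) and Abcc5 (MRP5), pumps for glutathione conjugates and for nucleotides, stayed at low levels, at most 7.91 and 26.01 CPM in any mouse. Abcc3 ran from 179 to 374 CPM over all 18 mice. Abcc6 (MRP6), which mediates ATP release from hepatocytes, stood at 154, 250.3 and 177 CPM in WT vehicle mice and 104, 109 and 107 CPM in WT TCDD mice. Its WT groups did not overlap, with a log2 difference of -0.86 (SE 0.39, adjusted p = 0.265). Abcc9, which forms the regulatory part of a potassium channel instead of a pump, ran from 12.8 to 55.5 CPM, highest in WT vehicle 1, the library with muscle RNA.

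The region before the Abcc4 start is shown with that of Slc46a3, which rose with it, and with those of Slc22a3 and Slco1a4, the members with the largest rise and the largest fall in WT. The letters are the 120 bases before the RefSeq start site on GRCm38.p6, 5′ to 3′ on the gene's strand. Capitals mark GCGTG, the core of AHR binding sites, and TGACNNNGC, the core of the antioxidant response element, on either strand.
Abcc4, chr14:118706220-118706339, minus strand: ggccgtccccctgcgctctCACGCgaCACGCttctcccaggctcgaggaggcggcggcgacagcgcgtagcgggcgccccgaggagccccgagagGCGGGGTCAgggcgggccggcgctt
Slc46a3, chr5:147894816-147894935, minus strand: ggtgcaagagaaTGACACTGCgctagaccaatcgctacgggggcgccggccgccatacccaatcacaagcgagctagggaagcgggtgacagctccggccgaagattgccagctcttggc
Slc22a3, chr17:12507705-12507824, minus strand: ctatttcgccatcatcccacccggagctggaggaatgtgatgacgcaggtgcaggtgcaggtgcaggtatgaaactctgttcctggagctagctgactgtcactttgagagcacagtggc
Slco1a4, chr6:141856221-141856340, minus strand: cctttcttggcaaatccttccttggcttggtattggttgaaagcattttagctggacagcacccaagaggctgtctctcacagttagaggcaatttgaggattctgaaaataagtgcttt

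The Abcc4 stretch holds 2 matches to the AHR core and 1 to the antioxidant core, and that of Slc46a3 holds 1 antioxidant core. Slc22a3 and Slco1a4 have neither string even in the 250 bases before the start. Slc13a3, which also rose in WT and is not shown, has neither in its 120 bases and 1 antioxidant core at -201. A second Abcc4 start, at 118676931, has 0 AHR cores and 1 antioxidant core in its 250 bases. RefSeq entries were matched for 25 of the 32 transporters. In the 250 bases before at least 1 of their start sites, 8 hold GCGTG (Abcc4, Abca3, Abcb4, Abcg8, Slc22a5, Slc16a1, Slc29a1 and Slc15a4) and 6 hold TGACNNNGC (Abcc2, Abcc4, Slc13a3, Slc16a1, Slc29a1 and Slc46a3). Some of the 25 have more than 1 such window, and Slc29a1 has 8. Counted by window, 10 of the 38 windows of these transporters hold GCGTG and 8 hold TGACNNNGC, and of 32851 such windows over all genes 28.2% and 10.2% do. The marked strings do not overlap each other in the stretches shown, and a match is a description of letters, not a measured binding site.

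The apical drug efflux pumps, which send drugs and conjugates into bile, were called in no comparison. Abcb1a and Abcb1b, a pair of neighbouring P-glycoprotein genes whose shared reads make each count uncertain, were highest in WT vehicle 1. Abcb1a stood at 41.8 CPM there, against 7.90 and 8.95 CPM in the other WT vehicle mice. Abcg2 (BCRP), an exporter of sulfate conjugates, was 50.0, 43.9 and 41.3 CPM in WT vehicle and 59.0, 86.8 and 53.2 CPM in WT TCDD mice. Its groups did not overlap in WT (log2 difference 0.56, SE 0.24, adjusted p = 0.226) or in dHSC (0.57, SE 0.24, adjusted p = 0.317), and neither difference passed.

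Abcc2 was the one apical pump whose dHep groups did not overlap. It stood at 613, 2169 and 819 CPM with vehicle and 432, 612 and 402 CPM with TCDD, a log2 difference of -1.32 (SE 0.44, adjusted p = 0.523). The high value of 2169 CPM came from dHep vehicle 9, 1 of the 5 libraries that stand apart. Without those 5 libraries only dHep vehicle 3 was left to set against 2 dHep TCDD mice, and the difference was -0.23. That value rests on an arm of 1 mouse, which is assumed to vary like the other groups.

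Among the phospholipid and sterol transporters Abcg1 alone was called, in the WT comparison. Abcg1 (ENSMUSG00000024030, chromosome 17, 31057675 to 31117988, plus strand) moves cholesterol out of cells to lipoproteins and is known as a macrophage gene. It was 11.9, 6.56 and 9.36 CPM in WT vehicle mice and 24.3, 18.9 and 23.4 CPM in WT TCDD mice, with no overlap. The rise was 1.26 on the log2 scale (SE 0.26, adjusted p = 0.00878).

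In dHep livers Abcg1 was 8.46, 8.74 and 7.47 CPM with vehicle and 8.66, 10.7 and 13.5 CPM with TCDD (log2 difference 0.41, SE 0.26, adjusted p = 0.803). In dHSC livers it was 8.10, 9.65 and 9.57 CPM with vehicle and 21.9, 18.3 and 14.9 CPM with TCDD. Those groups did not overlap, and the log2 difference of 1.01 (SE 0.26) had an adjusted p of 0.0515. The summed level of 6 scar macrophage genes, all with counts in every library, ran from 65.0 to 79.1 CPM in WT vehicle and from 377 to 479 CPM in WT TCDD. It went from 91.3 to 144 and then 195 to 341 CPM in dHep, and from 53.6 to 115 and then 216 to 280 CPM in dHSC. The sum of 10 Kupffer cell and macrophage genes ran from 242 to 627 CPM in WT vehicle and from 852 to 1043 CPM in WT TCDD. That sum overlapped in dHep, at 460 to 631 and then 480 to 828 CPM. It also overlapped in dHSC, at 530 to 720 and then 551 to 922 CPM. The part of these cells in the Abcg1 result was not tested, and in bulk liver a change in the number of cells of a type and a change in RNA per cell cannot be told apart.

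The other sterol and phospholipid genes showed no call. Abcb4, the canalicular phosphatidylcholine floppase, was the steadiest of them, from 273 to 435 CPM over the 18 mice. Abca1, which loads cholesterol on apolipoproteins, ran from 70.0 to 207 CPM. Abca3, a lipid transporter of intracellular membranes, varied most, from 5.72 to 130.1 CPM. Of the 7 other LXR targets listed, genes of the sterol-sensing receptor that controls Abca1 and Abcg1, 0 were called in any of the 7 comparisons. At most 5.38% of all genes were called in any of them.

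Abcg5 and Abcg8, which work only as a pair to move sterols into bile, lie head to head on chromosome 17, and the 109 bases between their start sites are shown because both genes share them.
Abcg5-Abcg8 interval, chr17:84683012-84683120, plus strand: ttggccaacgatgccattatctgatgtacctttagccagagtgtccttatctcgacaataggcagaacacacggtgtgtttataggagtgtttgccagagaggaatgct
Neither gene was called. The ratio of Abcg5 to Abcg8 counts was 0.665 to 1.12 in 12 libraries and 2.06 in WT TCDD 8. In the 5 libraries that stand apart it was 1.88 to 5.23, so the pair did not keep one ratio across libraries. The span of Abcg8 covers 22.2% of the Abcg5 exon length, where reads may have gone uncounted.

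**Figure D2:**
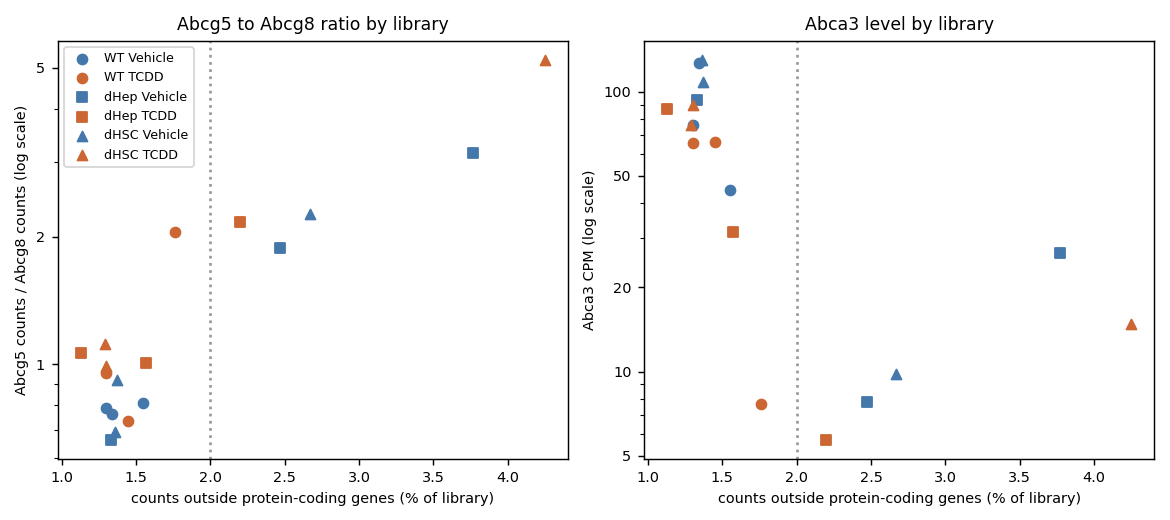
Ratio of Abcg5 to Abcg8 counts (left, log scale) and Abca3 level in CPM (right, log scale) in each of the 18 libraries, against the percent of counts outside protein-coding genes. The 5 libraries right of the dotted line at 2% have ratios of 1.88 to 5.23 and Abca3 levels of 5.72 to 26.6 CPM, and WT TCDD 8 has a ratio of 2.06 with Abca3 at 7.63 CPM.

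The split of libraries was set against all 32 transporters. Between the 5 libraries and the other 13, 2 of the 32 transporters had ranges that did not overlap, against 13.4% of all genes. Slc22a18 was 215 to 296 CPM in the 5 and 76.4 to 213 CPM in the 13. Slc29a1, the equilibrative nucleoside carrier ENT1, was 249 to 421 and 87.6 to 232 CPM. The 5 hold 3 dHep and 2 dHSC mice and no WT mouse. The split also ran inside single groups. In dHep vehicle, Slc22a18 was 96.6 CPM in mouse 3, and 296 and 295 CPM in mice 9 and 15, which are among the 5. Slc29a1 was 152 CPM in mouse 3, and 362 and 421 CPM in mice 9 and 15. What sets the 5 libraries apart was not tested.

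The OATP uptake carriers moved in both directions. Slco1a4 (Oatp1a4, ENSMUSG00000030237, chromosome 6, 141805440 to 141856199, minus strand), a hepatocyte carrier for organic anions and cardiac glycosides, fell furthest of the 32 in WT. It was 233, 303 and 174 CPM in WT vehicle mice and 70.2, 52.8 and 70.4 CPM in WT TCDD mice. Every treated mouse was below every vehicle mouse, a log2 difference of -1.88 (SE 0.25, adjusted p = 0.000283).

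In dHep livers Slco1a4 was 262, 327 and 262 CPM with vehicle and 169, 229 and 224 CPM with TCDD, a log2 difference of -0.45 (SE 0.24, adjusted p = 0.751). In dHSC livers it was 314, 241 and 272 CPM with vehicle and 176, 173 and 172 CPM with TCDD, a log2 difference of -0.67 (SE 0.24, adjusted p = 0.217). Neither pair of groups overlapped, yet neither passed. The 3 dHSC TCDD mice lay closer together than any other group for this gene, with an SD of 2.52 CPM. The 7 hepatocyte markers summed to between 86890 and 153400 CPM in WT vehicle and between 46790 and 87960 CPM in WT TCDD, and their part in the fall was not tested.

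Slco3a1 (OATP3A1, ENSMUSG00000025790, chromosome 7, 74275419 to 74554780, minus strand), which carries prostaglandins, was higher in every TCDD mouse than in every vehicle mouse of its genotype, in all 3 genotypes. It was 14.3, 5.55 and 8.27 CPM in WT vehicle and 27.4, 17.996 and 17.7 CPM in WT TCDD mice. It was 8.65, 12.7 and 7.25 CPM in dHep vehicle and 20.2, 21.2 and 21.98 CPM in dHep TCDD mice. In dHSC it was 7.83, 8.77 and 7.88 CPM with vehicle and 18.001, 17.005 and 29.5 CPM with TCDD.

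Only the dHSC rise of Slco3a1 was called, at 1.40 on the log2 scale (SE 0.34, adjusted p = 0.0386). The differences in WT (1.16, SE 0.34, adjusted p = 0.0562) and in dHep (1.15, SE 0.34, adjusted p = 0.424) were of like size and did not pass. The unadjusted p-values were 0.00325 in WT, 0.00363 in dHep and 0.000819 in dHSC, and each comparison was adjusted over its own genes. The highest dHSC mouse, at 29.5 CPM, is dHSC TCDD 18, and without the 5 libraries that stand apart the dHSC difference was 1.08 (adjusted p = 0.311). Without them the WT difference passed (1.17, adjusted p = 0.0404). The scar macrophage sum given above was also higher in every TCDD mouse of each genotype. The Kupffer cell and macrophage sum was so only in WT and overlapped in dHep and dHSC. The part of these cells in this gene was not tested.

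Slco2b1, a carrier of sulfated steroids and statins, was not called. It was 106, 174 and 131 CPM in WT vehicle and 71.9, 93.9 and 60.3 CPM in WT TCDD mice (log2 difference -0.86, SE 0.26, adjusted p = 0.0668). In dHSC it was 152, 136 and 191 CPM and then 101, 74.3 and 94.2 CPM (-0.83, SE 0.26, adjusted p = 0.127). Groups did not overlap in these 2 genotypes. Antisense genes overlap 37.4% of its exon length, where reads may have gone uncounted. Slco2a1, the prostaglandin carrier known from endothelium, ran from 66.6 to 113 CPM over the 18 mice with no call.

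**Figure D3:**
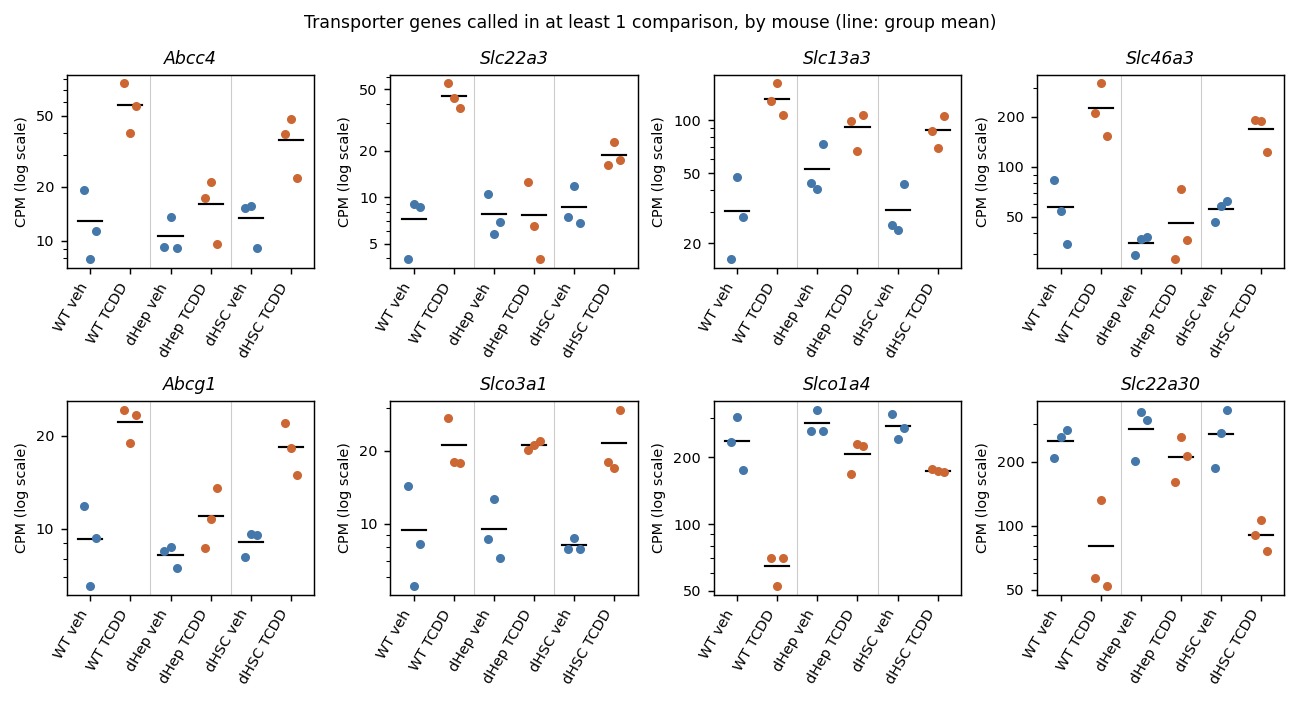
Level of the 8 transporter genes called in at least 1 comparison, in CPM on a log scale, with each mouse as a point (blue vehicle, orange TCDD) and each group mean of 3 mice as a line. For Abcc4, Slc22a3, Slc13a3, Slc46a3 and Abcg1 the WT TCDD points lie wholly above the WT vehicle points, and for Slco1a4 and Slc22a30 wholly below.

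Of the SLC22 and SLC47 organic ion carriers, Slc22a3 rose and Slc22a30 fell. Slc22a3 (OCT3, ENSMUSG00000023828, chromosome 17, 12418960 to 12507704, minus strand) carries monoamines and other organic cations such as metformin. It was 3.96, 9.08 and 8.61 CPM in WT vehicle mice and 54.5, 43.6 and 38.0 CPM in WT TCDD mice. The treated mice were far above the vehicle mice, and the log2 difference of 2.65 (SE 0.43, adjusted p = 0.00128) was the largest rise among the 32.

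In dHep livers Slc22a3 was 10.5, 5.77 and 6.87 CPM with vehicle and 12.5, 6.47 and 3.95 CPM with TCDD, with a log2 difference of -0.01 (SE 0.40) and overlapping groups. In dHSC livers it was 7.42, 11.7 and 6.82 CPM with vehicle and 16.2, 22.7 and 17.4 CPM with TCDD. There the groups did not overlap, at a log2 difference of 1.12 (SE 0.41, adjusted p = 0.218). The 5 untreated and treated groups other than WT TCDD thus held no mouse above 22.7 CPM. Plg, the plasminogen gene next to it, overlaps Slc22a3, and together with another gene it covers 9.44% of the Slc22a3 exon length. Plg averaged 1979 ± 310.4 CPM in WT vehicle and 681 ± 224 CPM in WT TCDD, and its part in the Slc22a3 count was not tested.

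Slc22a30 (ENSMUSG00000052562, chromosome 19, 8335371 to 8405111, minus strand) was 209, 261 and 282 CPM in WT vehicle mice and 56.6, 132 and 52.1 CPM in WT TCDD mice. All treated mice were lower, by -1.64 on the log2 scale (SE 0.37, adjusted p = 0.0141). That call was lost without WT TCDD 2 (-1.45, adjusted p = 0.0820), without WT vehicle 13 (-1.55, adjusted p = 0.0529) and without WT TCDD 14 (-1.41, adjusted p = 0.0817). It was also lost when only the 2 WT groups were fitted (adjusted p = 0.0566).

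In dHSC livers Slc22a30 was 186, 274 and 352 CPM with vehicle and 90.7, 106 and 75.6 CPM with TCDD, a fall called at -1.58 (SE 0.37, adjusted p = 0.0300). Without the 5 libraries that stand apart it was -1.23 (adjusted p = 0.303). In dHep livers it was 201, 343 and 313 CPM and then 161, 261 and 212 CPM, with overlap (-0.44, SE 0.36). Slc22a30 belongs to a cluster of similar genes, and reads shared with its relatives make the split between them uncertain. Its relative Slc22a26 fell as well, by 2.32 in WT and by 2.02 in dHSC. Its relative Slc22a29 went the other way and rose by 2.73 in WT and by 3.68 in dHSC, from a low mean of 3.61 CPM in WT vehicle.

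The other carriers of this role were not called. Slc47a1 (MATE1), which exports organic cations into bile, was 129, 208 and 179 CPM in WT vehicle and 102, 92.4 and 80.5 CPM in WT TCDD mice, without overlap (log2 difference -0.91, SE 0.32, adjusted p = 0.122). Slc22a23, an orphan member of the family, did not overlap in dHSC (-0.47, SE 0.35, adjusted p = 0.721). Slc22a5 (OCTN2), the carnitine carrier, ran from 16.8 to 80.9 CPM over the 18 mice. Slc22a7 (OAT2), an organic anion carrier, ran from 16.9 to 94.6 CPM.

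Slc13a3 and Slc46a3 led the remaining solute carriers. Slc13a3 (NaDC3, ENSMUSG00000018459, chromosome 2, 165405028 to 165473230, minus strand) takes up dicarboxylates such as succinate with sodium. It was 16.2, 47.2 and 28.1 CPM in WT vehicle mice and 128, 162 and 107 CPM in WT TCDD mice. Every treated mouse was above every vehicle mouse, with a rise of 2.12 (SE 0.39, adjusted p = 0.00392).

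In dHSC livers Slc13a3 was 25.3, 23.9 and 43.2 CPM with vehicle and 86.8, 69.0 and 106 CPM with TCDD, a rise called at 1.504 (SE 0.38, adjusted p = 0.0463). Without the 5 libraries that stand apart this was 1.67 (adjusted p = 0.0981). In dHep livers it was 44.2, 40.7 and 73.1 CPM and then 99.3, 66.4 and 107 CPM, which overlapped (0.79, SE 0.37, adjusted p = 0.738). An antisense gene, Gm14437, covers 34.9% of its exon length, where reads may have gone uncounted for both genes. Gm14437 had no count in any library, which for an overlapped gene does not show that it was silent.

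Slc46a3 (ENSMUSG00000029650, chromosome 5, 147878437 to 147894815, minus strand) is a lysosomal membrane carrier known to release products of antibody-drug conjugates into the cytosol. It was 83.7, 54.0 and 34.5 CPM in WT vehicle mice and 210.5, 319 and 155 CPM in WT TCDD mice. The groups were apart, with a rise of 1.99 (SE 0.40, adjusted p = 0.00703).

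In dHSC livers Slc46a3 was 46.6, 58.0 and 62.5 CPM with vehicle and 192, 189.9 and 123 CPM with TCDD, a rise called at 1.60 (SE 0.39, adjusted p = 0.0410). Without the 5 libraries that stand apart the rise was 1.87 (adjusted p = 0.128). In dHep livers it was 29.5, 36.8 and 38.0 CPM and then 27.8, 73.8 and 36.3 CPM, with overlap (0.40, SE 0.39). A single mouse, dHep TCDD 10, held the highest of those values.

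Slc15a4, a lysosomal carrier of histidine and peptides known from immune cells, was not called. It was 35.5, 28.1 and 22.3 CPM in WT vehicle and 21.4, 19.3 and 13.9 CPM in WT TCDD mice (-0.65, SE 0.26, adjusted p = 0.177). In dHSC it was 34.0, 31.8 and 25.2 CPM and then 18.8, 17.9 and 15.5 CPM (-0.80, SE 0.26, adjusted p = 0.138). The TCDD mice of both genotypes were wholly below the vehicle mice, and their scar macrophage sums were wholly above. The Kupffer cell and macrophage sum was wholly above in WT and overlapped in dHSC. The part of these cells in the Slc15a4 values was not tested. Slc16a1 (MCT1), the lactate carrier, and Slc29a1 were not called and overlapped in every TCDD comparison.

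The test of whether the TCDD response differed between dHep and WT called 1 of the 32, Slc22a3, whose response was lower by -2.66 (SE 0.58, adjusted p = 0.0398). Across all genes 0.856% were called in that test, 0.506% lower in dHep. The call held in 1 of the 12 fits that left out a mouse of these groups, where the difference ranged from -3.22 to -2.34 and the adjusted p reached 0.146. Without the 5 libraries it was -2.80 (adjusted p = 0.140), with dHep vehicle 3 the only mouse left in its group and assumed to vary like the other groups. Slco1a4 differed by 1.42 (SE 0.34, adjusted p = 0.0703), and DESeq2 called it with Slc22a3, 2 members where that tool called 1.78% of genes.

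The other called genes did not pass that test. The difference of response was -1.56 for Abcc4 (SE 0.56, adjusted p = 0.371) and -1.59 for Slc46a3 (SE 0.55, adjusted p = 0.331). It was -1.33 for Slc13a3 (SE 0.53, adjusted p = 0.466), -0.85 for Abcg1 (SE 0.37, adjusted p = 0.524) and 1.21 for Slc22a30 (SE 0.51, adjusted p = 0.510). For Slco3a1 it was -0.02 (SE 0.47). So for these 6 a call in WT or dHSC beside no call in dHep does not show that the genotypes differ. Nor does it show that they respond alike: at an unadjusted p under 0.05, 10 of the 32 transporters passed the test of the difference, where 8.43% of all genes did. Among the 10 were 5 of these 6, with unadjusted p-values from 0.01035 for Slc46a3 to 0.0343 for Abcg1, and Slco3a1 was not among them. Those 5 were picked by their calls in WT, and this test uses the same WT mice. Their p-values are therefore not independent of that choice.

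**Figure D4:**
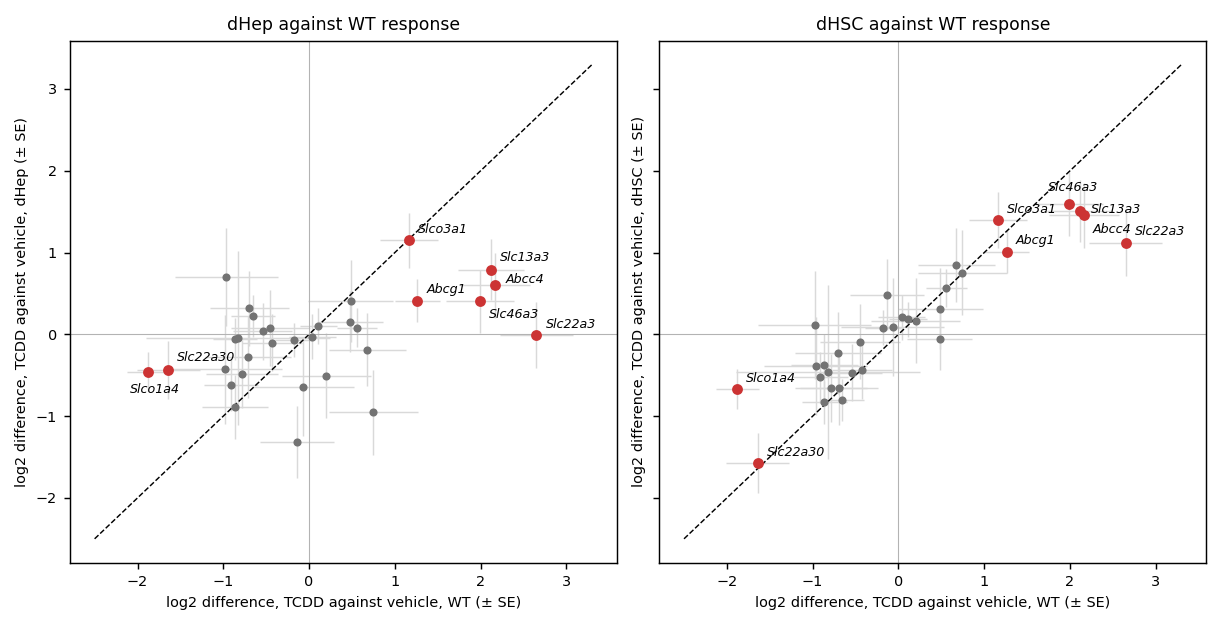
Log2 difference between TCDD and vehicle in WT (x axis) against that in dHep (left) and in dHSC (right) for the 32 transporters, with standard errors as bars, equality as a dashed line and the 8 called genes in red. Slc22a3 lies at 2.65 in WT, -0.01 in dHep and 1.12 in dHSC, and Slco3a1 lies near the line in both panels.

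Between dHSC and WT the response differed for 0 of the 32 by edgeR, which called 0% of genes, and for 0 by DESeq2, which called 0.0121%. At an unadjusted p under 0.05 in edgeR there were 2, where 1.57% of all genes passed. They were Slco1a4 (1.21, SE 0.34, unadjusted p = 0.00266) and Slc22a3 (-1.53, SE 0.57, unadjusted p = 0.0165). DESeq2 called the same 2 in the test of dHep against WT, and both tests use the same WT mice. The 4 calls in dHSC moved with the libraries fitted. Each of the 4 held in 1 of the 6 fits that left out a mouse. The number called was 1 without dHSC vehicle 5, 0 without dHSC TCDD 6, 0 without dHSC vehicle 11, 1 without dHSC TCDD 12, 1 without dHSC vehicle 17 and 3 without dHSC TCDD 18. The share of all genes called in each of those fits is not given here, so these counts do not single out the transporters. In WT 6 of the 7 calls held in all 6 such fits, the exception being Slc22a30.

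No transporter was called between genotypes without TCDD. In dHep against WT vehicle mice edgeR called 0 of the 32 and 0% of all genes, and DESeq2 called 0 of the 32 and 0.0121% of genes. At an unadjusted p under 0.05 there was 1 transporter, where 6.91% of all genes passed, and the largest difference was 0.964 on the log2 scale. In dHSC against WT vehicle mice edgeR called 0 of the 32 and 0% of all genes, and DESeq2 called 0 and 0.00809%. No transporter had an unadjusted p under 0.05, where 1.48% of all genes did, and the largest difference was 0.679.

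Related genes outside the 32 give the setting. Across all genes 5.38% were called in WT, 2.55% in dHSC and 0.0674% in dHep. In the test of dHep against WT 0.856% were called. At such shares a short list may hold few calls or none by its size alone. These lists were also chosen with earlier results of these data known. Of 24 other ABC genes tested, 0 were called in any comparison. Of 37 other SLC drug and solute carriers tested, 2 rose and 6 fell in WT, and 1 rose and 3 fell in dHSC. Among those that fell in WT were Slc22a26, Slc16a10 (-1.39, SE 0.27), an aromatic amino acid carrier, and 3 phosphate and urate carriers of the SLC17 family, Slc17a2 (-1.49, SE 0.37), Slc17a3 (-1.87, SE 0.32) and Slc17a4 (-1.16, SE 0.28). Slc22a29 rose, as did Slc16a3 (2.34, SE 0.59), the lactate exporter MCT4, from a mean of 0.838 CPM. In the test of dHep against WT the responses of Slc22a26 (2.62, SE 0.47), Slc22a29 (-2.63, SE 0.55) and Slc16a10 (2.09, SE 0.38) differed.

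Of 7 bile acid carriers tested, Slco1a1, an OATP close to Slco1a4, fell in WT (-3.45, SE 0.89, adjusted p = 0.0323), and its WT vehicle mean of 95.0 ± 94.4 CPM shows how far those mice differed. Of 25 factors known to control transporter genes, Nfe2l2, which encodes NRF2, rose in WT by 1.53 (SE 0.28, adjusted p = 0.00411), and the other 24 were not called. Of 12 NRF2 targets tested, 5 rose in WT: Nqo1 (2.67, SE 0.33), Hmox1 (1.502, SE 0.39), Srxn1 (1.85, SE 0.33), Gsta1 (4.38, SE 0.53) and Gstm3 (2.55, SE 0.41), which encode enzymes of oxidant and electrophile defence. In dHSC 2 of the 12 rose, Nqo1 (1.69, SE 0.32) and Gstm3 (1.60, SE 0.40). In dHep 0 of the 12 were called, where 0.0674% of all genes were. The response of 2 was lower in dHep than in WT, Nqo1 (-2.39, SE 0.45) and Gsta1 (-3.20, SE 0.68). Nqo1 was also listed among the genes used to check AHR exposure. The parts of NRF2 and AHR in these changes were not tested.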

How the data were processed

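The deposited files hold raw read counts per gene, 1 library per mouse. Per the submitters' processing notes, reads were handled on GRCm38 with HTSeq 0.11.3, HISAT2 2.1.0, FastQC 0.11.9 and DESeq2 1.22.2, and no counting settings are given. Genes were named from GENCODE M21. All 1287 protein-coding genes lying wholly inside another gene had no count, against 24.8% of 11728 overlapping none, so genes overlapped by others (20 of the 32) may have lost reads.

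Counts were fitted in edgeR 4.0.16 (R 4.3.3), all 18 libraries in 1 model with a mean per group, after filterByExpr and TMM scaling. The quasi-likelihood test was adjusted by Benjamini-Hochberg over 14835 genes and called at 0.05. The fit was tested on simulated data with a lower spread between mice than these data have. The simulation held no libraries that stand apart, so it does not show how the fit performs with such spread and libraries. Levels are CPM after TMM, as mean ± SD. The labels treat each library as 1 mouse and pair no mice. Alternatives were RLE scaling, other filters, only the groups compared, DESeq2 1.42.0 and leaving out each library. Chosen after seeing the data were leaving out the 5 libraries with over 2% of counts outside protein-coding genes, and sets of 6 mouse numbers as a block. Named genes are the members called in at least 1 comparison, members whose TCDD and vehicle mice do not overlap, and called genes of companion lists, with the other members given by ranges. The members and lists were chosen with earlier results of these data known. Markers of 10 cell types were summed. Promoter sequences are from RefSeq. The values of 1 companion-list gene are not reported here.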

Additional observations from a re-analysis of the deposited data

Results flagged for a closer look

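The TCDD response of Slc22a3, the organic cation carrier OCT3, differed between dHep and WT livers by -2.66 on the log2 scale (SE 0.58, adjusted p = 0.0398, edgeR's quasi-likelihood test of the difference itself). The gene went up in 3 of 3 WT TCDD mice relative to every WT vehicle mouse, and dHep TCDD mice overlapped dHep vehicle mice. The call held in 1 of the 12 fits that left out a mouse of these groups, where the adjusted p of that test reached 0.146. In dHSC the Slc22a3 response differed from that in WT by -1.53 (SE 0.57), in the same direction, and was not called.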

How the results depend on the processing

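The number of transporters called in WT was 7, and 6 to 9 when 1 library was left out. It was 11 without the 5 libraries that stand apart, where 10.2% of all genes were called in WT, against 5.38% with them. In dHSC the 4 calls became 2 with no filter, 0 with only the groups compared, 8 with DESeq2, 0 without the 5 libraries, and 0 to 3 when 1 library was left out. The 1 call in the difference of response between dHep and WT became 0 with only the groups compared, 2 with DESeq2, 0 without the 5 libraries, and 0 to 1 when 1 library was left out. The other 3 settings, RLE scaling, at least 1 CPM in 3 libraries and the block of mouse number sets, kept each count within 1.5 times. The cause of these changes was not tested, beyond fewer samples in the fits that leave some out. In dHSC DESeq2 called 4.66% of genes, against 2.55% in edgeR. In the difference between dHep and WT it called 1.78%, against 0.856%. For the other settings no share of all genes is set beside the dHSC and difference counts. A change in the transporters is therefore not told apart from a change in calls across all genes. Counts in the other 4 comparisons stayed at 0. Without the 5 libraries dHep vehicle keeps 1 mouse, so each dHep value under that setting assumes that this mouse varies like the other groups.

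Small uncalled differences changed sign. In dHep, Slc22a3 was 0.0168 with no filter and -0.571 to 0.307 when 1 library was left out. Slc22a30 was 0.0733 without the 5 libraries, where dHep vehicle keeps only 1 mouse. Slc46a3 ran from -0.114 to 0.668 when 1 library was left out. The Slco3a1 difference between dHep and WT was 0.000784 with no filter and -0.447 to 0.256 when 1 library was left out. It was 0.0905 without the 5 libraries, again with only 1 dHep vehicle mouse. With 3 mice per group and a biological coefficient of variation of 0.448, small differences were not detectable at this depth and spread.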
